A study of Mus musculus with 12 samples.

Results

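The spermatid and sperm structural genes are 37 genes, of 55385 in the table, whose products are built into or act in the maturing spermatid and the spermatozoon. They were chosen by gene symbol, and each symbol named 1 row of the table. By role they were grouped as 5 genes of sperm chromatin, 6 of the acrosome, 8 of the flagellum, 4 CatSper channel subunits, 4 spermatid kinases, 3 germ cell forms of glycolytic enzymes, the transcription factor gene *Crem*, and 6 others. All 37 were annotated as protein coding, on 17 chromosomes, with 7 of them on chromosome 16 and only *Akap4* on the X.

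The libraries came from sorted adult mouse spermatogonia, the mitotic germ cells of the testis, and the study asked how Polycomb repressive complex 1 (PRC1) acts in them. There were 12 libraries in 6 groups of 2. WT Aundiff and WT Adiff were undifferentiated and early differentiating spermatogonia of C57BL/6 mice aged 2 to 3 months. The other 8 were all Aundiff, from mice on a mixed C57BL/6 and FVB/NJ background that lacked *Ring1* on both alleles (Ring1-/-) and carried Ddx4-Cre, a recombinase driven by a germ cell promoter. PRC1ctrl littermates had the *Rnf2* genotype F/+ and PRC1cKO mice F/-, where F is the floxed allele, so the controls also lacked *Ring1* and could lose 1 *Rnf2* allele. Untreated PRC1 mice were 2 months old. Win18,446 mice received the inhibitor of retinoic acid synthesis from 1 month of age in about 30 daily injections of 50 μl at 40 μg/μl, and were sampled 24 h after the last one. Aundiff were taken as E-cadherin-positive, CD9-high, KIT-negative cells, a gate that contains no spermatid marker. Cells were pooled for each library, about 7000 for the untreated PRC1 groups (Smart-Seq2, a full-length low-input method) and 100000 to 150000 for the other groups (stranded TruSeq).

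Spermatogonia enter meiosis as spermatocytes, and the haploid products, the spermatids, then remodel themselves into sperm. In that remodelling histones are exchanged for transition proteins and then protamines, the acrosome is laid down over the nucleus, and the flagellum with its sheath and dense fibres is assembled. Most of the genes concerned are transcribed in spermatids, some from the spermatocyte stage on, and their abundant mRNAs are stored before translation.

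The targeted genes were read first. *Ring1* was listed at 8.61 to 19.9 TPM (a level scaled to transcript length and to the library's total) in the 4 WT libraries and at 0.03 to 0.25 TPM in the 8 PRC1 libraries. *Rnf2* was not lower in the libraries labelled PRC1cKO. It was 56.7 and 67.5 TPM against 28.3 and 47.6 TPM in the untreated groups, and 86.2 and 93.1 TPM against 78.1 and 67.2 TPM under Win18,446. A gene-level TPM counts exons outside the floxed part, so it does not check this deletion, and every direction below is that of the libraries labelled PRC1cKO and PRC1ctrl. The spermatogonial marker *Zbtb16* stood at 131 to 216 TPM in WT Aundiff and Win18,446 PRC1ctrl but at 4.93 to 14.2 TPM in the 4 untreated PRC1 libraries. A list of 18 undifferentiated spermatogonia genes summed to 1358 and 1526 TPM in WT Aundiff. It summed to 1102 and 1567 TPM in untreated PRC1ctrl and to 520.1 and 632 TPM in untreated PRC1cKO. The germ cell marker *Ddx4* stood at 171 to 307 TPM in all 12 libraries. Of these libraries, untreated PRC1ctrl replicate 2 stood apart for the genes described here. It was above replicate 1 for 36 of the 37, with a median ratio of 2.99 over the 30 genes at 1 TPM or more in both, against a median of 1.29 over 11619 genes of the table. The exception was *Tnp1*. Mitochondrially encoded genes took 12.5% to 16.7% of TPM in the 4 untreated PRC1 libraries and 4.28% to 6.69% in the others. The number of reads behind the values is unknown.

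The chromatin genes are shown first with their sequences, because 4 of them are neighbours and were read out together. *Tnp2*, *Prm3*, *Prm2* and *Prm1* lie in this order on the minus strand of chromosome 16, within 17904 bases (GRCm38, chr16:10787936-10805839). *Tnp1* lies apart, on the minus strand at chr1:73015074-73015909. *Prm1* and *Prm2* encode protamines, the small basic proteins that pack sperm DNA, *Tnp1* and *Tnp2* the transition proteins that precede them, and *Prm3* is a protamine-related gene of the cluster. The promoter windows below, 250 bases before to 50 after the transcript start, are RefSeq's for GRCm38.p6 and read in the direction of the gene. Capitals mark a match to TGACTTCA or TGAGGTCA, letters close to the cAMP response element (CRE) that CREM binds, or to the TATA box TATAAA, on either strand. In *Prm1* (chr16:10796774-10797073) TGACTTCA began 64 bases before the start, in *Prm3* (chr16:10790865-10791164) TGAGGTCA began 60 bases before it, and in *Prm2* (chr16:10792056-10792355) the reverse complement of TATAAA began 31 bases before it. *Tnp2* (chr16:10788606-10788905) and *Tnp1* (chr1:73015850-73016149) held none of the 3.
Prm1: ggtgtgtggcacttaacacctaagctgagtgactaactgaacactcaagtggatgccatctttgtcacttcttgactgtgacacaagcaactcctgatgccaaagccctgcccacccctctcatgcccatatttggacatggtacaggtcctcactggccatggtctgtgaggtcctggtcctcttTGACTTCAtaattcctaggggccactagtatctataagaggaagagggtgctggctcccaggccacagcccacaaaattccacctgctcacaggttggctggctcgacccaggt
Prm2: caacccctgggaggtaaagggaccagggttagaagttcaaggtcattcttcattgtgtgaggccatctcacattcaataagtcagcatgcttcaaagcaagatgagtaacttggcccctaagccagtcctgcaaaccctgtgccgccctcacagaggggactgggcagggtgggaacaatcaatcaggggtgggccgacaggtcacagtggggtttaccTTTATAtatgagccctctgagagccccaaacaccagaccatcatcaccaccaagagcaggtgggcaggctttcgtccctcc
Prm3: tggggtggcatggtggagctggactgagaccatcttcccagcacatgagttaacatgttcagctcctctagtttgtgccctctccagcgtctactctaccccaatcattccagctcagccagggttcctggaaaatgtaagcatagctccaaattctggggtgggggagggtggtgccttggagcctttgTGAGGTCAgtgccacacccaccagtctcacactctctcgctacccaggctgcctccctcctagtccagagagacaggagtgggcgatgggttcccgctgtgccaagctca
Tnp2: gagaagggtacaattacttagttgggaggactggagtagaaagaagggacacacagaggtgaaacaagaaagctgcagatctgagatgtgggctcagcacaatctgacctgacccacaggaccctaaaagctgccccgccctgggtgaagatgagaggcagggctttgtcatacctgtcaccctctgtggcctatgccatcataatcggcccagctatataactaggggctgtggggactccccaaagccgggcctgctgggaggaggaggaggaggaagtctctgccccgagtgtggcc
Tnp1: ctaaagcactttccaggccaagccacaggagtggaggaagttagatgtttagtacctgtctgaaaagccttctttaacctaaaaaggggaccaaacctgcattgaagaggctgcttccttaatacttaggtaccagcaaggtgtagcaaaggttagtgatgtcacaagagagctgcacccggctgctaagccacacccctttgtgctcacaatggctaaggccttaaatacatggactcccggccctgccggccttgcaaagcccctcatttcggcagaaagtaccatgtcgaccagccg

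The table of promoters matched 32 of the 37 genes, with 43 windows because some genes have several starts. The full CRE, TGACGTCA, was found in 1 of the 43 windows, that of *Izumo1*, and in 1.79% of all 32851 promoter windows. Its shorter part TGACG, which the full CRE contains, was found in 12 of the 43 and in 20.8% of all. TGACTTCA was found in 4 of the 43, those of *Prm1*, *Tssk1*, *Tssk2* and *Gsg1*, and in 1.52% of all. TGAGGTCA was found in 2 (*Prm3* and *Ropn1*) and in 2.17% of all, and TATAAA in 4 (*Prm2*, *Cabs1*, *Fscn3* and *Gsg1*) and in 13.6% of all. TGACTTCA and TGAGGTCA were picked after their matches in these windows had been seen. Another 2 CRE-like strings searched, TGACGCAA and TGACGTGA, were found in 0 of the 43 and in 0.49% and 0.441% of all. TGACG is also contained in these 2, and no other string searched contains another. The stretches around TGACTTCA are given to show how the flanks differ between the 4 genes. They are written with the match (capitals) reading forward, so that of *Gsg1* and the second of *Tssk1* run against the gene. The matches began 64 bases before the start in *Prm1*, 48 and 35 in *Tssk1*, 58 in *Tssk2* and 22 in *Gsg1*.
Prm1 (chr16:10796868-10796899, minus strand): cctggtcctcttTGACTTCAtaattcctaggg
Tssk1, first (chr16:17894143-17894174, plus strand): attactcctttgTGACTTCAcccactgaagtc
Tssk1, second (chr16:17894156-17894187, minus strand): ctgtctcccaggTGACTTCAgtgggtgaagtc
Tssk2 (chr16:17898567-17898598, plus strand): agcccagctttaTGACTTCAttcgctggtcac
Gsg1 (chr6:135254339-135254370, plus strand): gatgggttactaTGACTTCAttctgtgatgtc

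The libraries of sorted spermatogonia of both wild-type groups held RNA of nearly all of these genes. Which cells in the sort it came from was not tested. The 37 together summed to 1255 and 1307 TPM in WT Aundiff and to 962 and 1127 TPM in WT Adiff, and 34 and 33 of them were at 1 TPM or more in both libraries of the group. In untreated PRC1ctrl the sum was 1600.5 and 3788 TPM. It was 317 and 293 TPM in Win18,446 PRC1ctrl. The libraries labelled PRC1cKO had the lowest sums, 125 and 135 TPM untreated and 109 and 121 TPM under Win18,446. These 4 did not overlap with any other library. The sum is a description with no test. In bulk libraries fewer cells of a type and less RNA per cell cannot be told apart.

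**Figure D1:**
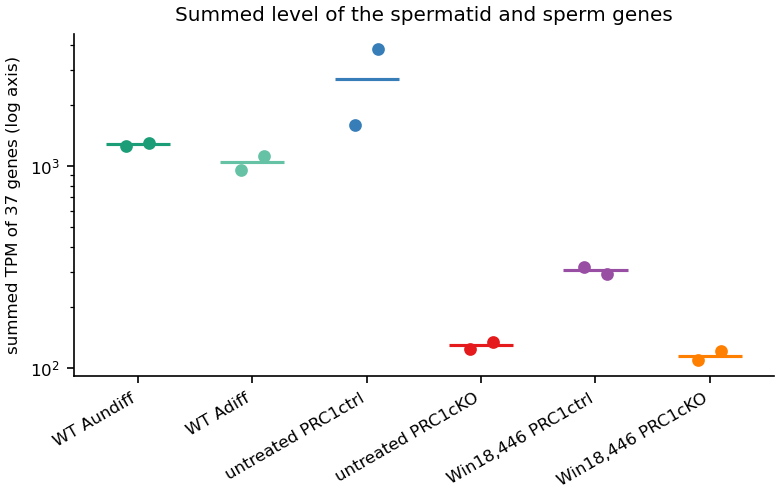
Summed TPM of the 37 genes in each library (points) on a log axis, with the group mean as a line and n = 2 a group. The 4 libraries labelled PRC1cKO lie between 109 and 135 TPM, below the 293 TPM of the lowest of the others.

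**Figure D2:**
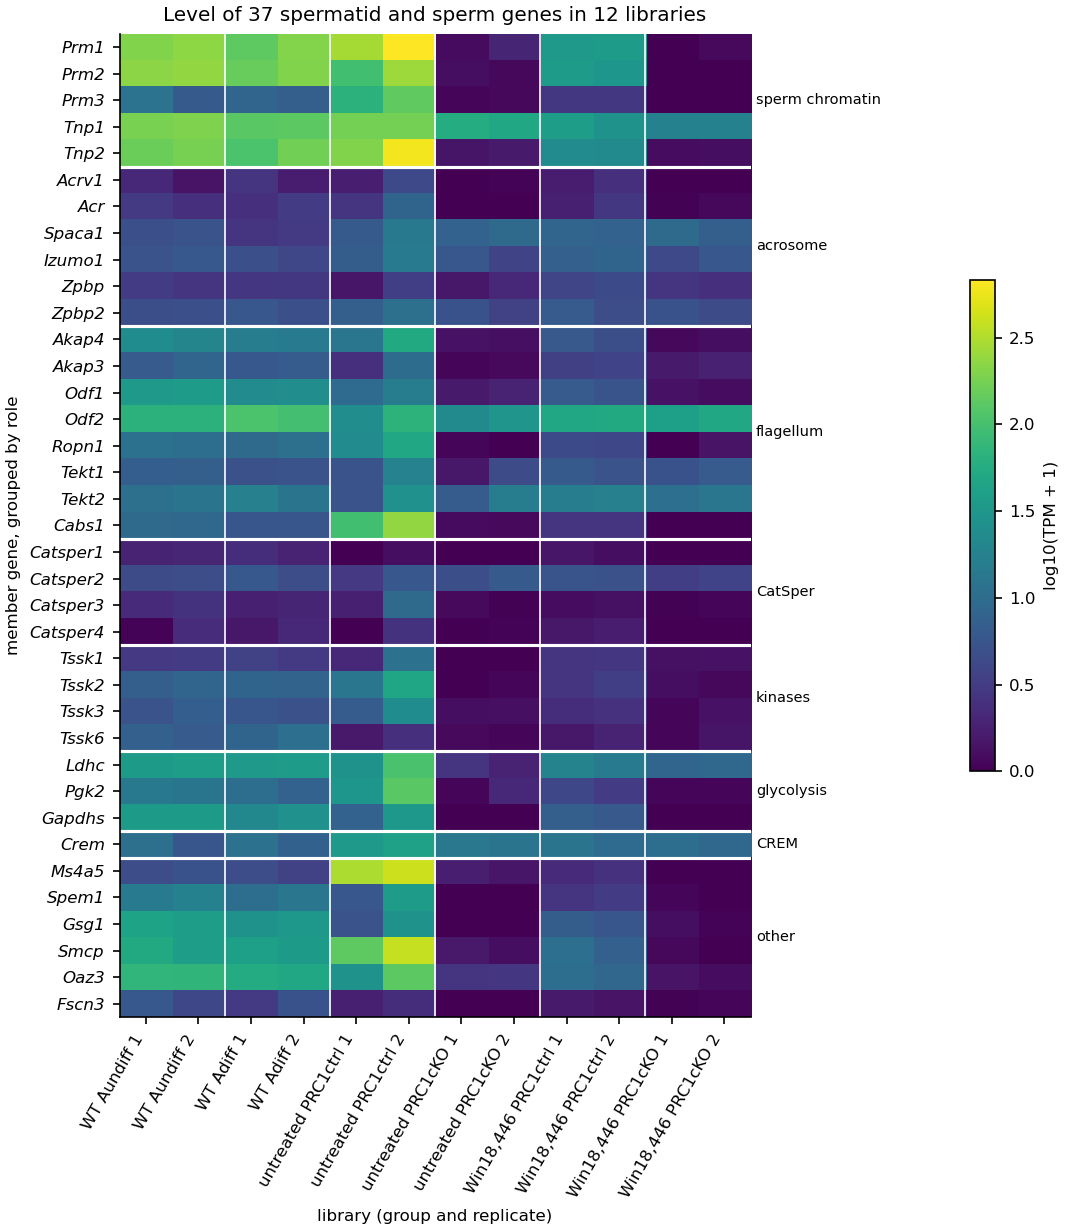
Level of each gene as log10(TPM + 1) in each of the 12 libraries, with genes in rows by role and libraries in columns by group. The columns labelled PRC1cKO are dark for most rows and stay lighter for *Tnp1*, *Spaca1*, *Izumo1*, *Zpbp2*, *Odf2*, *Tekt2*, *Catsper2* and *Crem*.

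The first comparison asked whether these genes differed between the 2 wild-type populations. No gene of the 37, all of which passed the filter of 1 TPM or more in at least 2 libraries, was called by limma at an adjusted p below 0.05 and an absolute log2 fold change above 1. At an unadjusted p below 0.05 there were 10, where 49.1% of all genes tested passed, and 7 had an adjusted p below 0.05 with a smaller fold, where 38.1% of all genes passed at any fold. Both counts are a smaller share of the 37 than of all genes. Over all 15470 genes tested, 9.24% were called lower and 11.1% higher in Adiff. The fold changes ran from -0.84 (*Spaca1*) to 0.63 (*Odf2*), with a median of -0.27 against 0.15 over all genes. With a pseudocount of 0.1 in place of 1, *Spaca1* was called at -1.11 (adjusted p = 0.0422).

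Of the 7, 6 lay below 0 on the log2 scale and *Odf2* above it. *Odf2* encodes an outer dense fibre protein that is also a centrosome component in other cells. It had 65.4 and 65.0 TPM in Aundiff and 107 and 95.4 TPM in Adiff, a log2 fold change of 0.63 ± 0.13 (SE, adjusted p = 0.0135), and the groups did not overlap. *Tnp1* had 181 and 192 TPM in Aundiff and 129 and 132 TPM in Adiff, -0.51 ± 0.12 (adjusted p = 0.0173). *Spaca1*, an acrosomal membrane protein, had 3.96 and 4.25 TPM against 1.69 and 2.01 TPM, -0.84 ± 0.25 (adjusted p = 0.0387). For both genes every Adiff library was below every Aundiff library. The other 4 were *Odf1* (-0.57), *Cabs1* (-0.66), *Gapdhs* (-0.55) and *Oaz3* (-0.49). Over all 37, groups did not overlap for 14 genes lower and 4 higher in Adiff, against 28.7% and 43.4% of all genes tested.

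The second comparison set untreated Aundiff labelled PRC1cKO against PRC1ctrl. RNA of the 5 sperm chromatin genes fell, to below 1 TPM for *Prm1*, *Prm2*, *Prm3* and *Tnp2* and to 29.5% of the control mean for *Tnp1*. The calls also held 3 flagellum genes, 1 kinase gene, 2 genes of the germ cell glycolytic enzymes and 2 of the others, and no gene of the 37 was called higher. Of the 31 that passed the filter, 13 were called lower, with adjusted p from 0.00967 to 0.0477. Over all 13953 genes tested 1.94% were called lower and 0.222% higher. The median fold change was -3.62 over the 31 and 0.22 over all genes. A gene at nearly 0 in 1 group passes the filter only through the other, so these counts and medians are no measure of how the full list behaved. Of all 37, 30 had both PRC1cKO libraries below both PRC1ctrl libraries and 0 the reverse, against 17.3% and 27.5% of all genes tested. The 37 include 6 below the filter, whereas these shares are of genes that passed it.

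With each library left out in turn, in the same genes, 0 were called without PRC1ctrl replicate 1, 0 without PRC1ctrl replicate 2, 1 without PRC1cKO replicate 1 and 7 without PRC1cKO replicate 2. A left-out library leaves 1 in its group, which is assumed to vary like the others. With no filter on low values 0 were called, with a lowest adjusted p of 0.0999 among the 13. With median-of-ratios scaling 21 were called, and with all 12 libraries in one fit 24.

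The third comparison set the same labels side by side under Win18,446, which holds spermatogonia in the undifferentiated state. Of the 30 that passed the filter, 18 were called lower and 0 higher, with adjusted p from 0.000111 to 0.00663. Over all 16521 genes tested 10.9% were called lower and 1.27% higher. The median was -1.29 against -0.19 over all genes. Of the 30, 19 were not at 1 TPM or more in both PRC1cKO libraries, so their direction was tied to the filter and the count and median are no measure of the full list. The 18 called were all among these 19. Both PRC1cKO libraries were below both PRC1ctrl libraries for 32 of the 37 and the reverse held for 0, against 49.3% and 20.1% of all genes tested. The 37 include 7 below the filter, whereas these shares are of genes that passed it. With a mean of 5 TPM required, only 10 of the genes were tested and 3 were called. With the filter applied anew after leaving out PRC1ctrl replicate 1 or 2, a choice made after seeing the data, 11 were tested and 0 and 2 were called.

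**Figure D3:**
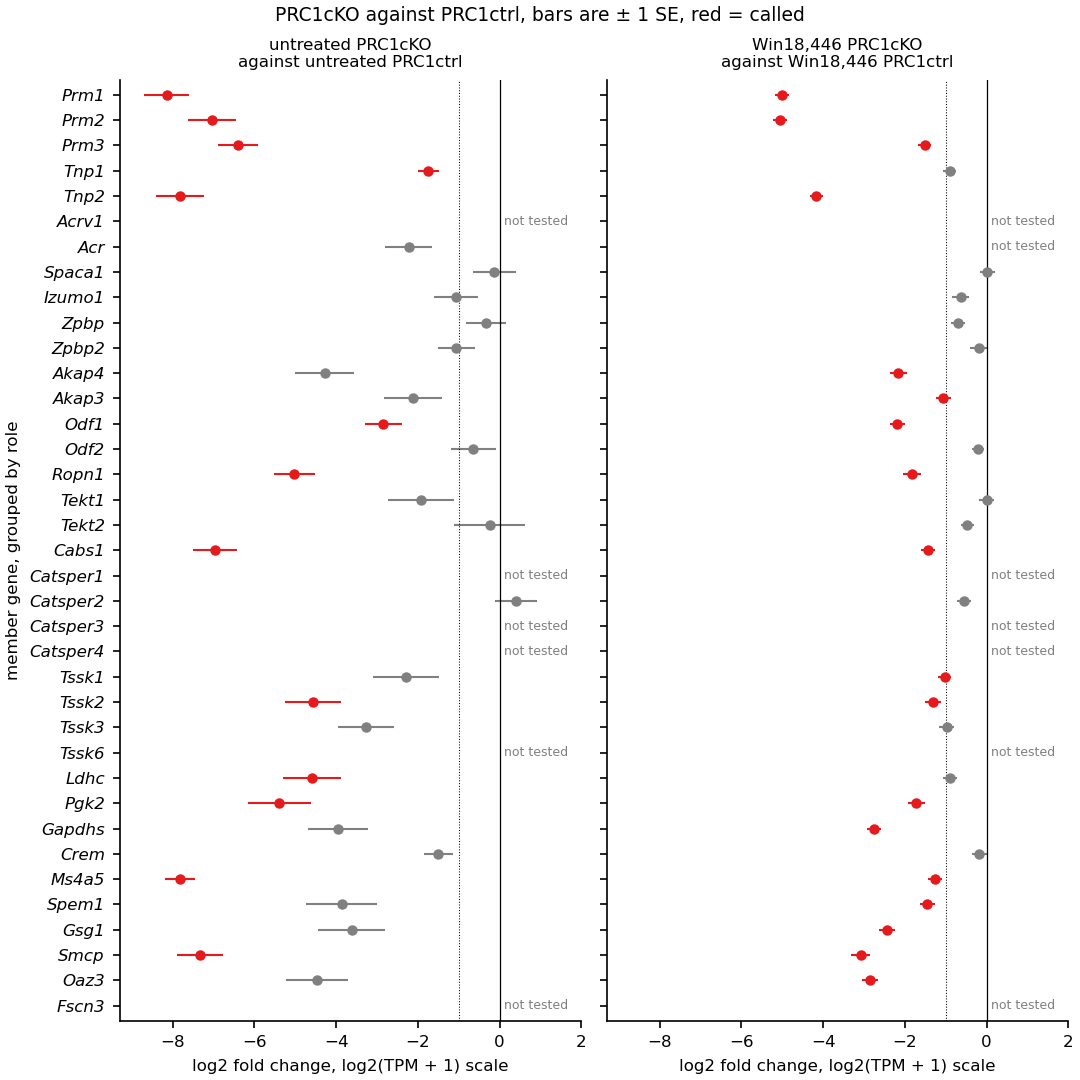
Fitted log2 fold change of each gene, PRC1cKO against PRC1ctrl libraries as labelled, on the log2(TPM + 1) scale, untreated (left) and under Win18,446 (right). Bars are 1 SE, red points were called, the dotted line is at -1, and genes below the filter are marked as not tested. No called gene lies to the right of 0 in either panel.

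The 2 comparisons share no library. Called in both were 11 genes, 84.6% of the 13 untreated calls and 61.1% of the 18 calls under Win18,446. Over all genes 58 were called lower in both, 21.5% and 3.21% of the calls. Of the members called, 12 of 13 and 18 of 18 were not at 1 TPM or more in both PRC1cKO libraries, so the filter tied their direction and the overlap is a description only. *Tnp1* and *Ldhc* were called only untreated, and 7 genes (*Akap3*, *Akap4*, *Gapdhs*, *Gsg1*, *Oaz3*, *Spem1* and *Tssk1*) only under Win18,446. Of these 7, 5 were also called untreated with median-of-ratios scaling and 7 with all 12 libraries in one fit. A call in only 1 setting does not show a difference between the settings: the groups of all 9 were apart in both, with PRC1cKO below. Of all genes tested 17.3% were apart in this direction untreated and 49.3% under Win18,446.

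Among the sperm chromatin genes, *Prm1* had 280.4 and 684 TPM in untreated PRC1ctrl and 0.21 and 0.99 TPM in PRC1cKO. Under Win18,446 it had 32.0 and 36.0 TPM in PRC1ctrl, and 0 and 0.19 TPM in PRC1cKO. No library labelled PRC1cKO came near a control in either setting, and the log2 fold changes were -8.14 ± 0.55 (SE, adjusted p = 0.0172) and -5.00 ± 0.18 (adjusted p = 0.00012).

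*Prm2* had 92.8 and 264 TPM against 0.26 and 0.14 TPM untreated, and 35.4 and 29.9 TPM against a listed 0 in both libraries under Win18,446. *Tnp2* had 196 and 608 TPM against 0.46 and 0.60 TPM, and 22.2 and 21.2 TPM against 0.24 and 0.29 TPM. Both were called in both settings, *Prm2* at -7.04 ± 0.58 (adjusted p = 0.0172) and -5.07 ± 0.17 (adjusted p = 0.000111) and *Tnp2* at -7.82 ± 0.59 (adjusted p = 0.0172) and -4.16 ± 0.16 (adjusted p = 0.000165).

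*Prm3* differed from its neighbours in level. In WT Aundiff it had 11.2 and 5.38 TPM where *Prm1* had 199.7 and 227 TPM, and in untreated PRC1ctrl it had 65.4 and 137 TPM. It was at 0.13 and 0.14 TPM in untreated PRC1cKO, at 1.87 and 1.85 TPM in Win18,446 PRC1ctrl and listed at 0 in both Win18,446 PRC1cKO libraries. Its calls were -6.40 ± 0.49 (adjusted p = 0.0172) and -1.52 ± 0.17 (adjusted p = 0.00261).

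*Tnp1* was the chromatin gene that stayed present. It had 176 TPM in each untreated PRC1ctrl library and 56.4 and 47.4 TPM in PRC1cKO, and under Win18,446 36.8 and 27.8 TPM against 16.7 and 16.6 TPM. It was called untreated (-1.75 ± 0.26, adjusted p = 0.0425) and under Win18,446 it fell short of the fold threshold (-0.91 ± 0.16, adjusted p = 0.0082), with no overlap in either. The PRC1cKO mean was 29.5% and 51.5% of the control mean, where *Prm1* was at 0.124% and 0.279%. An antisense gene, 1700027A15Rik, covers 9.15% of its exonic bases. The untreated libraries were made with a kit not stated to keep the strand. Reads of the 2 genes over this shared part cannot be told apart in those libraries.

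**Figure D4:**
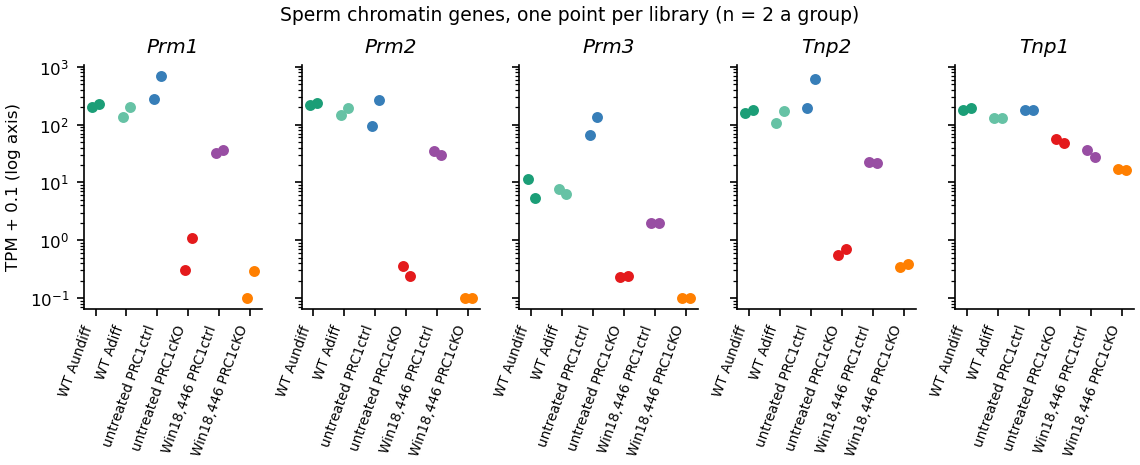
TPM + 0.1 of the 5 sperm chromatin genes on a log axis, 1 point per library and 2 per group. In the PRC1cKO groups *Prm1*, *Prm2*, *Prm3* and *Tnp2* are below 1 TPM in all 4 libraries, and *Tnp1* is at 16.6 to 56.4 TPM.

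None of the 6 acrosome genes was called by limma in either PRC1 comparison, with 1 of 5 tested at an unadjusted p below 0.05 untreated and 2 of 4 under Win18,446, where 14.2% and 44.3% of all genes were. Both PRC1cKO libraries were below both controls for 4 of the 6 in each setting, genes below the filter included. Of all genes tested this held for 17.3% untreated and 49.3% under Win18,446. *Izumo1*, which encodes the sperm protein that binds the egg, had 5.91 and 13.2 TPM against 4.83 and 2.84 TPM untreated (-1.07 ± 0.53, adjusted p = 0.456) and 6.34 and 7.21 TPM against 3.23 and 4.90 TPM under Win18,446 (-0.64 ± 0.21, adjusted p = 0.0579). *Spaca1* had 5.40 and 12.9 TPM against 6.74 and 8.62 TPM, and 7.5 and 6.85 TPM against 8.54 and 6.18 TPM. For *Izumo1* the groups were apart in both settings, whereas for *Spaca1* they overlapped in both (-0.13 ± 0.52 and 0.02 ± 0.19, adjusted p = 0.924 and 0.951).

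*Acr*, the gene of the protease acrosin, and *Acrv1* were low throughout. They had 0.79 to 7.13 TPM and 0.70 to 3.22 TPM in the PRC1ctrl libraries, and at most 0.14 TPM in the 4 libraries labelled PRC1cKO. For both genes PRC1cKO lay below PRC1ctrl without overlap in both settings. *Zpbp* and *Zpbp2*, whose products bind the zona pellucida, were at 0.52 to 1.71 TPM and 2.64 to 4.17 TPM in those libraries. *Izumo1* shares 21.9% of its exonic bases with *Rasip1* on the same strand.

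Of the 8 flagellum genes 3 were called lower untreated and 5 under Win18,446, where 1.94% and 10.9% of all genes were. Both PRC1cKO libraries were below both controls for 6 of the 8 in each setting, against 17.3% of all genes tested untreated and 49.3% under Win18,446. *Cabs1*, a calcium-binding protein of elongating spermatids, had 93.0 and 239 TPM against 0.21 and 0.19 TPM untreated, and 1.69 and 1.70 TPM against a listed 0 in both libraries under Win18,446. *Ropn1*, of the fibrous sheath, had 22.6 and 47.5 TPM against 0.08 and 0 TPM, and 3.35 and 3.08 TPM against 0 and 0.42 TPM. *Odf1*, of the outer dense fibres, had 8.79 and 14.8 TPM against 0.61 and 0.86 TPM, and 5.45 and 4.43 TPM against 0.36 and 0.25 TPM. All were without overlap and called in both settings, with untreated folds of -6.97 ± 0.55, -5.03 ± 0.50 and -2.84 ± 0.45 (adjusted p = 0.0172, 0.0226 and 0.0477) and folds under Win18,446 of -1.43 ± 0.16, -1.82 ± 0.22 and -2.18 ± 0.19 (adjusted p = 0.0027, 0.00288 and 0.00176).

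*Akap4* and *Akap3*, anchoring proteins of the fibrous sheath, were called under Win18,446 only. *Akap4* had 12.1 and 51.6 TPM against 0.39 and 0.31 TPM untreated (-4.28 ± 0.72, adjusted p = 0.0568) and 5.2 and 3.80 TPM against 0.16 and 0.28 TPM under Win18,446 (-2.16 ± 0.20, adjusted p = 0.00199). *Akap3* had 1.41 and 9.17 TPM against 0.10 and 0.18 TPM (-2.12 ± 0.71, adjusted p = 0.261), and 2.44 and 2.68 TPM against 0.61 and 0.81 TPM (-1.06 ± 0.18, adjusted p = 0.00663). The untreated controls of both genes lay far from each other.

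*Odf2* was the flagellum gene with the highest level in libraries labelled PRC1cKO. It had 23.5 and 67.6 TPM against 21.9 and 29.1 TPM untreated, and 48.7 and 52.1 TPM against 38.4 and 48.8 TPM. The groups overlapped untreated, and under Win18,446 the higher PRC1cKO library just passed the lower control, with folds of -0.64 ± 0.56 (adjusted p = 0.653) and -0.21 ± 0.15 (adjusted p = 0.306), the latter turning to 0.026 under median-of-ratios scaling. The tektin genes *Tekt1* and *Tekt2*, whose proteins line ciliary microtubules, were at 0.51 to 5.45 TPM and 5.69 to 14.4 TPM in the 4 libraries labelled PRC1cKO, and neither was called. *Tekt2* shares 20.8% of its exonic bases with Gm12945 on the other strand.

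Only *Catsper2* of the 4 pore subunits of the sperm calcium channel passed the filter in the PRC1 comparisons. It had 1.95 and 4.93 TPM against 3.76 and 5.34 TPM untreated (0.39 ± 0.51, adjusted p = 0.761), with overlap. The value was -0.11 without PRC1ctrl replicate 1 and 0.90 without PRC1ctrl replicate 2, so the direction rested on 1 library. It had 4.39 and 4.01 TPM against 2.36 and 2.74 TPM under Win18,446 (-0.55 ± 0.18, adjusted p = 0.0521), without overlap. *Catsper3* had 0.77 and 8.60 TPM in untreated PRC1ctrl and 0.17 and 0.03 TPM in PRC1cKO. *Catsper1* and *Catsper4* were at or below 1.57 TPM in every library, and *Catsper1* was listed at 0 in all 4 labelled PRC1cKO.

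Of the spermatid kinase genes, *Tssk2* was called in both settings. It had 11.8 and 46.3 TPM against 0 and 0.08 TPM untreated (-4.57 ± 0.69, adjusted p = 0.0446), and 1.68 and 2.37 TPM against 0.27 and 0.14 TPM under Win18,446 (-1.32 ± 0.19, adjusted p = 0.00457). *Tssk1*, 714 bases upstream of it on the same strand, had 1.11 and 10.6 TPM against 0.02 and 0 TPM (-2.29 ± 0.81, adjusted p = 0.286), and 1.76 and 1.78 TPM against 0.35 and 0.36 TPM (-1.03 ± 0.17, adjusted p = 0.00588). *Tssk3* had 5.61 and 23.1 TPM against 0.28 and 0.32 TPM (-3.28 ± 0.68, adjusted p = 0.0926), and 1.35 and 1.52 TPM against 0.13 and 0.36 TPM (-0.97 ± 0.18, adjusted p = 0.00954). The groups of these 3 did not overlap in either setting, so *Tssk3* missed the call by the adjusted p untreated and by the fold under Win18,446. *Tssk6* was below the filter in both, at up to 1.5 TPM in the 8 PRC1 libraries against 5.51 to 9.95 TPM in WT, and shares 29.2% of its exonic bases with genes on the other strand.

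*Ldhc*, *Pgk2* and *Gapdhs* encode the sperm forms of lactate dehydrogenase, phosphoglycerate kinase and glyceraldehyde-3-phosphate dehydrogenase. *Pgk2* had 30.1 and 129 TPM against 0.12 and 1.06 TPM untreated (-5.39 ± 0.78, adjusted p = 0.0421), and 3.1 and 2.14 TPM against 0.10 and 0.08 TPM under Win18,446 (-1.72 ± 0.20, adjusted p = 0.0027). *Gapdhs* had 6.71 and 31.2 TPM against 0.02 and 0 TPM (-3.96 ± 0.73, adjusted p = 0.0716), and 6.30 and 5.24 TPM against a listed 0 in both (-2.75 ± 0.18, adjusted p = 0.0014). Both genes were below both controls in every library labelled PRC1cKO. *Gapdhs* shares 10.1% of its exonic bases with Tmem147os on the other strand.

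*Ldhc* was called untreated only. It had 26.7 and 105 TPM against 1.67 and 0.90 TPM untreated (-4.59 ± 0.71, adjusted p = 0.0458), but 17.4 and 13.3 TPM against 7.48 and 7.77 TPM under Win18,446 (-0.91 ± 0.17, adjusted p = 0.00947). The PRC1cKO mean was 1.96% of the control mean untreated and 49.8% under Win18,446, without overlap in either.

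*Crem* encodes the transcription factor that drives many postmeiotic genes, and the locus also gives repressor forms in other cells, which a gene-level TPM does not separate. It had 32.0 and 40.5 TPM in untreated PRC1ctrl against 12.6 and 11.5 TPM in PRC1cKO (-1.51 ± 0.35, adjusted p = 0.117), and 11.3 and 8.73 TPM against 9.53 and 7.74 TPM under Win18,446 (-0.19 ± 0.18, adjusted p = 0.475). It was not called in either. Untreated, the groups were apart, and it was called lower under 3 of 17 alternative settings, among them median-of-ratios scaling (-1.80, adjusted p = 0.0279) and all 12 libraries in one fit (adjusted p = 0.0219), with adjusted p from 0.1 to 0.578 under the other 14. Under Win18,446 the groups overlapped, and median-of-ratios scaling turned the value to 0.033.

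Among the 6 others, *Ms4a5*, of the membrane-spanning 4A family, had 308 and 420.1 TPM against 0.71 and 0.50 TPM untreated (-7.82 ± 0.36, adjusted p = 0.00967), and 1.24 and 1.54 TPM against a listed 0 in both under Win18,446 (-1.25 ± 0.17, adjusted p = 0.00373). *Smcp*, of the mitochondrial capsule, had 136 and 381 TPM against 0.55 and 0.29 TPM (-7.34 ± 0.57, adjusted p = 0.0172), and 9.96 and 6.45 TPM against 0.14 and 0 TPM (-3.08 ± 0.24, adjusted p = 0.00176). In both genes the control level differed far more between the settings than the level in PRC1cKO. The settings differ in kit and cell number as well as treatment, which cannot be told apart. WT Aundiff, made with the kit of the Win18,446 libraries, had 3.65 and 4.16 TPM of *Ms4a5* and 51.13 and 38.25 TPM of *Smcp*.

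*Oaz3*, the testis form of antizyme, had 27.5 and 131 TPM against 1.68 and 1.83 TPM untreated (-4.48 ± 0.76, adjusted p = 0.0584), and 9.65 and 7.66 TPM against 0.42 and 0.24 TPM (-2.86 ± 0.20, adjusted p = 0.00146). *Gsg1* had 4.38 and 27.1 TPM against a listed 0 in both (-3.62 ± 0.81, adjusted p = 0.107), and 5.91 and 4.71 TPM against 0.26 and 0.06 TPM (-2.44 ± 0.20, adjusted p = 0.00176). *Spem1*, needed for spermatids to shed their cytoplasm, had 4.93 and 34.8 TPM against a listed 0 in both (-3.87 ± 0.87, adjusted p = 0.108), and 1.64 and 2.16 TPM against 0.11 and 0 TPM (-1.46 ± 0.19, adjusted p = 0.00317). All 3 were called under Win18,446 only, without overlap in either setting. *Fscn3*, an actin-bundling protein of spermatids, was at most 1.35 TPM in the PRC1 libraries and was not tested there. *Oaz3* shares 55.8% and *Gsg1* 18.5% of exonic bases with genes on the other strand.

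Across all 4 libraries labelled PRC1cKO, 24 of the 37 genes were below 1 TPM, 8 were at 1 TPM or more and 5 were mixed. The 8 were *Tnp1*, *Spaca1*, *Izumo1*, *Zpbp2*, *Odf2*, *Tekt2*, *Catsper2* and *Crem*, classes made after the values were seen.

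The remaining lists give the setting of these values. Of 66 other spermatid and sperm genes, 41 passed the filter untreated and 16 were called lower and 0 higher, where 1.94% and 0.222% of all genes were. Under Win18,446 37 passed, with 18 lower and 0 higher, where 10.9% and 1.27% of all genes were. In each library labelled PRC1cKO only 14 (untreated) or 15 (Win18,446) of the 66 were at 1 TPM or more. The filter thus tied the direction of many, and these counts are a description only. The 4 of the 66 with the highest mean TPM were *Hmgb4*, *Ropn1l*, *Dbil5* and *Meig1*. *Hmgb4* had 289 and 353 TPM in untreated PRC1ctrl against 0.45 and 0.73 TPM in PRC1cKO, and 3.26 and 2.24 TPM against a listed 0 in both under Win18,446. *Meig1* had 127 and 171 TPM against 12.4 and 9.33 TPM untreated, and 14.4 and 11.5 TPM against 11.0 and 10.8 TPM under Win18,446. *Dbil5* had 36.8 and 76.9 TPM against 18.2 and 15.2 TPM untreated, and 23.2 TPM in each control against 20.9 and 24.0 TPM under Win18,446. The untreated groups of these 3 were apart, and under Win18,446 those of *Dbil5* overlapped. *Ropn1l* had 14.8 and 40.9 TPM against 17.4 and 18.7 TPM, and 57.6 and 55.5 TPM against 57.1 and 64.7 TPM, with overlap in both settings.

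Of 31 spermatocyte genes, 26 were tested untreated and 0 were called by limma, with 6 at an unadjusted p below 0.05, where 14.2% of all genes were. Under Win18,446 5 of 28 were called lower and 0 higher, where 10.9% and 1.27% of all genes were. The summed level of the spermatocyte genes was 2757 to 3374 TPM in untreated PRC1ctrl and 3442 to 3948 TPM in PRC1cKO. Some marker sums of other cells differed with the untreated labels. The 8 Leydig cell genes summed to 1.39 and 1.41 TPM in PRC1ctrl, with 0 of 8 at 1 TPM or more, and to 24.8 to 68.6 TPM in PRC1cKO, with 7 or 8. Of the 7 tested, limma called 1 higher, where 0.222% of all genes were. All 7 had an unadjusted p below 0.05, where 14.2% of all genes did. Macrophage genes (12) summed to 6.68 to 17.4 TPM and 18.9 to 33.5 TPM, and endothelial genes (5) to 1.89 to 2.85 TPM and 3.45 to 4.46 TPM. Only 4 macrophage and 2 endothelial genes passed the filter, and 0 of either list were called by limma. At an unadjusted p below 0.05 there were 1 and 0, where 14.2% of all genes were. Sertoli and peritubular myoid cell sums overlapped. Under Win18,446 the Leydig cell sums were 86.7 to 435 TPM in PRC1ctrl and 24.1 to 85.3 TPM in PRC1cKO, the endothelial sums 13.4 to 13.9 TPM and 10.3 to 11.3 TPM, and the other somatic sums overlapped. Of the 7 Leydig cell and 4 endothelial genes tested there, 0 were called, where 10.9% of all genes were called lower and 1.27% higher. Undifferentiated spermatogonia genes (18) summed to 1102 to 1567 TPM and 520.1 to 632 TPM untreated, and to 1402 to 1511 TPM and 1060.1 to 1188 TPM under Win18,446. Untreated, limma called 1 of 17 lower and 0 higher, where 1.94% and 0.222% of all genes were, and their median log2 fold change was -0.25. Under Win18,446 2 of 18 were called lower and 0 higher, where 10.9% and 1.27% of all genes were. The sums of differentiating spermatogonia genes (11) stood the other way, at 391 to 539 TPM in PRC1ctrl and 805 to 1100.4 TPM in PRC1cKO untreated. Under Win18,446 they were 1074 to 1151 TPM and 1299 to 1402 TPM. There 3 of the 11 were called higher and 0 lower, where 1.27% and 10.9% of all genes were. Untreated 0 of the 11 were called by limma, with 5 at an unadjusted p below 0.05, where 14.2% of all genes were. Germ cell genes (6) summed to 1225 to 1397 TPM in PRC1ctrl and 1774.5 to 1818 TPM in PRC1cKO untreated. Under Win18,446 their sums were 2064 to 2220 TPM and 1966 to 1981 TPM. Of the 6, 0 were called in either setting. The part of these differences in the results above was not tested.

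Whether the 2 PRC1 differences themselves differed was tested over the 8 PRC1 libraries. On the log2(TPM + 1) scale the difference, Win18,446 minus untreated, was above 0 for 29 of the 32 genes tested and below 0 for 3. Of all 18354 genes 2.76% were called above 0 and 4.98% below. Of the 32, 8 were called above 0 and 0 below. They were *Ms4a5* (6.56 ± 0.34, adjusted p = 0.00192), *Cabs1* (5.54 ± 0.58, adjusted p = 0.00724), *Prm3* (4.88 ± 0.48, adjusted p = 0.00621), *Smcp* (4.25 ± 0.68, adjusted p = 0.0191), *Ldhc* (3.68 ± 0.83, adjusted p = 0.0456), *Tnp2* (3.66 ± 0.69, adjusted p = 0.0281), *Ropn1* (3.20 ± 0.52, adjusted p = 0.0192) and *Prm1* (3.14 ± 0.64, adjusted p = 0.0348), as log2 differences. A gene cannot fall on this scale by more than its control level, and for all 8 the untreated fall was beyond the largest one possible under Win18,446. The untreated log2 fold change was -8.14 where a fall of at most 5.13 was possible under Win18,446 for *Prm1*, -7.82 where 4.50 was for *Tnp2*, -7.34 where 3.18 was for *Smcp*, -5.03 where 2.07 was for *Ropn1* and -4.59 where 4.02 was for *Ldhc*. For *Ms4a5*, *Cabs1* and *Prm3* at most 1.25, 1.43 and 1.52 were possible. The sign of these 8 was therefore fixed by the control levels, and the test alone does not show a smaller proportional fall. *Ms4a5*, *Cabs1* and *Prm3* were listed at 0 in both Win18,446 PRC1cKO libraries with control means of 1.39 to 1.86 TPM, so no proportion can be read for them. *Ldhc* was the exception in size: its fold change under Win18,446, -0.91, was far from the 4.02 possible, and the PRC1cKO mean was 49.8% of the control mean against 1.96% untreated. The settings also differ in kit and cell number, which cannot be told apart from the treatment. Leaving out replicate 1 or 2 gave 20 and 13 (1 of them negative) for untreated PRC1ctrl, 5 and 3 for untreated PRC1cKO, 3 and 3 for Win18,446 PRC1ctrl, and 1 and 1 for Win18,446 PRC1cKO.

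The control groups were then compared, since they differed so far. Against untreated PRC1ctrl, whose libraries the second comparison shares, 16 of 32 genes tested were called lower in Win18,446 PRC1ctrl and 0 higher. Of all genes 14.1% were called lower and 50.1% higher. Called or not, 28 of the 32 lay below 0 and 4 above. The calls included all 5 chromatin genes, *Ms4a5* at -7.24 ± 0.27 (adjusted p = 0.00075) and *Crem* at -1.76 ± 0.27 (adjusted p = 0.00432). No acrosome gene was called. Groups were apart for 22 genes lower and 1 higher (*Zpbp*) of the 37, against 23.1% and 63.7% of all genes tested. The 37 include 5 below the filter, whereas these shares are of genes that passed it. All genes together had a median of 1.11. With scaling by median of ratios this was 0.03, and 26 of 35 were called, all lower. Of the marker genes tested in this comparison, 7 of 11 of Sertoli cells, 6 of 7 of Leydig cells, 4 of 7 of macrophages, 4 of 4 of peritubular myoid cells, 3 of 4 of endothelial cells and 11 of 18 of undifferentiated spermatogonia were called higher, and 2 of Sertoli cells and 3 of undifferentiated spermatogonia lower. Of 29 spermatocyte genes 10 were called higher and 6 lower, of 11 differentiating spermatogonia genes 6 and 2, and of 6 germ cell genes 3 and 1. These counts stand beside 50.1% of all genes called higher and 14.1% lower, so a count near those shares sets no list apart. The part of all these markers in the result was not tested, and kit, cell number and treatment cannot be told apart. Without Win18,446 PRC1ctrl replicate 1 or 2 the count was 4, and without untreated PRC1ctrl replicate 1 it was 25. Without untreated PRC1ctrl replicate 2, 16 were called lower and 3 higher.

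Against WT Aundiff, made with the same kit, 22 of 35 genes tested were called lower in Win18,446 PRC1ctrl and 0 higher. These libraries are shared with the wild-type and Win18,446 comparisons. Of all genes 3.17% were called lower and 16.4% higher. Called or not, 27 of the 35 lay below 0 and 8 above. Groups were apart for 27 genes lower and 5 higher of the 37, against 19.6% and 54.3% of all genes tested. The 37 include 2 below the filter, whereas these shares are of genes that passed it. Chromatin genes were called for 5 of 5, glycolysis genes for 3 of 3, the others for 6 of 6, flagellum genes for 5 of 8 and kinases for 3 of 4. *Prm2* went from 222 and 236 TPM in WT Aundiff to 35.4 and 29.9 TPM (-2.78 ± 0.13, adjusted p = 0.000604), and *Oaz3* from 72.2 and 70.7 TPM to 9.65 and 7.66 TPM (-2.92 ± 0.15, adjusted p = 0.000933). *Spaca1* was at 3.96 and 4.25 TPM in WT Aundiff and at 7.5 and 6.85 TPM in Win18,446 PRC1ctrl, above without overlap but short of the fold threshold (0.68 ± 0.18, adjusted p = 0.0288). Of the marker genes tested, 8 of 11 of Sertoli cells, 3 of 7 of macrophages and 8 of 29 of spermatocytes were called higher. For Leydig cells this was 1 of 7, for germ cells 1 of 6 and for peritubular myoid and endothelial cells 0 of 4 each. In these lists 0 genes were called lower. Of undifferentiated spermatogonia genes 4 of 18 were called lower and 1 higher, and of differentiating spermatogonia genes 2 of 11 lower. The 16.4% of all genes called higher is a larger share than that of the Leydig cell genes. Sertoli cell genes (14) summed to 94.7 and 98.3 TPM in WT Aundiff and to 451 and 242 TPM in Win18,446 PRC1ctrl, and Leydig cell genes to 23.5 and 45.4 TPM and to 435 and 86.7 TPM. Their part in the result was not tested, and genotype, strain and treatment cannot be told apart. Without Win18,446 PRC1ctrl replicate 2 the count was 0.

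**Figure D5:**
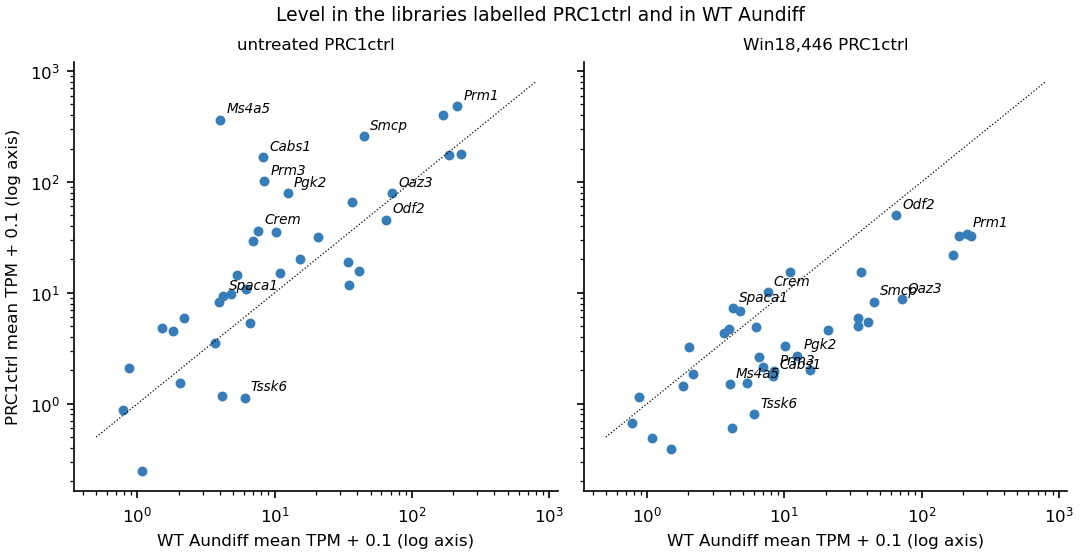
Mean TPM + 0.1 of each gene in WT Aundiff (horizontal) and in untreated (left) and Win18,446 (right) PRC1ctrl, both on log axes, n = 2 libraries a group, with a dotted line at equal level. Most points lie below the line on the right, and *Ms4a5*, *Cabs1* and *Prm3* lie far above it on the left.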

How the data were processed

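RNA-seq of 12 libraries was deposited as 1 table of TPM. Per the labels and the paper's methods the authors trimmed reads with Trim Galore 0.6.6 and made the TPM with RSEM 1.3.3 on GRCm38/mm10; how strand was set is not given in the sources used here. Coordinates of all 37 genes equalled those of GENCODE vM21. TPM keeps no read number, so depth is unknown and no counting interval was given. Here log2(TPM + 1) was fitted with limma 3.58.1 (R 4.3.3, trend and robust options) over genes with 1 TPM or more in at least 2 of the libraries fitted, two-sided, with Benjamini-Hochberg adjustment over all genes tested. A gene was called at an adjusted p below 0.05 if its log2 fold change was also beyond 1 in either direction. The scale understates the change of low genes. An exact permutation test of 2 against 2 libraries cannot go below p = 0.33 and was not used. The fit was tested on simulated data. Members and lists were chosen with earlier results of these data known. Values are given for genes called in the wild-type or a PRC1 comparison, or among the 2 highest by mean TPM in their role; the other genes by range, and the 4 highest of the other spermatid and sperm genes. Replicates were pools described as independent, in the order replicate 1, replicate 2. Pseudocount, filter, scaling, block, pooled fit, moderation and left-out libraries were varied.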

Additional observations from a re-analysis of the deposited data

Results flagged for a closer look

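The difference between the PRC1 effect under Win18,446 and the untreated one passed the test for 8 genes, as log2 differences with Benjamini-Hochberg adjusted p from limma: *Prm1* 3.14, *Prm3* 4.88, *Tnp2* 3.66, *Ropn1* 3.20, *Cabs1* 5.54, *Ldhc* 3.68, *Ms4a5* 6.56 and *Smcp* 4.25. All are positive, with 2 libraries a group. On the log2(TPM + 1) scale the untreated fall of each was beyond the largest fall its control level allows under Win18,446, so the sign was fixed by the control levels. *Ms4a5*, *Cabs1* and *Prm3* were listed at 0 in both Win18,446 PRC1cKO libraries, and no proportion can be read for them. For *Ldhc* the level left was 49.8% of the control mean under Win18,446 and 1.96% untreated, whereas *Prm1* was left at 0.279% and 0.124%.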

How the results depend on the processing

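Counts of called genes are given here, with the count in the report in parentheses. The wild-type comparison (0) gave 1 with a pseudocount of 0.1, *Spaca1*, and 0 under every other setting run. Untreated PRC1 (13) gave 0 with no filter, 8 with a mean of 5 TPM, 21 with median-of-ratios scaling, 23 with the replicate block and 24 with all 12 libraries in one fit. Win18,446 PRC1 (18) gave 3 with a mean of 5 TPM. The difference of the PRC1 effects (8) gave 3 with a pseudocount of 0.1, 5 with no filter, 5 with a mean of 5 TPM and 16 with median-of-ratios scaling. Win18,446 against untreated PRC1ctrl (16) gave 26 with median-of-ratios scaling.

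With each library left out in turn the counts ran from 0 to 7 untreated, 16 to 20 under Win18,446, 1 to 20 for the difference, 4 to 25 between the PRC1ctrl groups and 0 to 23 against WT Aundiff. With the filter also reapplied, added after seeing the data, they ran from 3 to 11, 0 to 19, 1 to 19, 13 to 26 and 18 to 22. Among genes not called, direction turned untreated for *Catsper2* (-0.11 without PRC1ctrl replicate 1, left-out libraries -0.11 to 0.90), *Spaca1* (0.43 without PRC1ctrl replicate 2 and 0.03 without PRC1cKO replicate 1, left-out libraries -0.69 to 0.43) and *Odf2* (0.10 without PRC1ctrl replicate 2, left-out libraries -1.38 to 0.10). Under Win18,446 it turned for *Odf2* (0.026) and *Crem* (0.033) with median-of-ratios scaling, and for *Spaca1* (-0.04 without PRC1ctrl replicate 2 and -0.19 without PRC1cKO replicate 1, left-out libraries -0.19 to 0.22). The cause was not tested.

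Median-of-ratios scaling moved the median of all genes from 0.22 to -0.04 untreated and from -0.19 to 0.03 under Win18,446. No source says that same-numbered libraries share an animal, batch or day, and there were 2 pairs a comparison. Their deviations correlated at 0.38 untreated, 0.16 in wild type and 0.12 under Win18,446. The replicate block gave 0 in wild type, 18 under Win18,446, 8 for the difference, 19 between the PRC1ctrl groups and 22 against WT Aundiff. It also called *Crem* untreated (-1.51, adjusted p = 0.00073, limma) and 6 of the 7 genes called only under Win18,446. Read depth, which limits genes near 0 TPM, is unknown.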

Other observations

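The order of the 37 genes by TPM was much the same within groups, with Spearman's rho of 0.861 to 0.981 between the 2 libraries of a group. Between untreated PRC1ctrl and WT Aundiff libraries it was 0.708 to 0.777, and between untreated and Win18,446 PRC1ctrl 0.562 to 0.622. These are descriptions across genes, which share libraries. The untreated PRC1ctrl mean of *Ms4a5* was 364 TPM and the WT Aundiff mean 3.90 TPM, a ratio of 93.3, while that of *Tssk6* was 0.174. The median ratio was 1.93 over the 34 genes at 1 TPM or more in WT Aundiff and 0.415 over 14985 genes of the table. With untreated PRC1ctrl replicate 1 alone, a choice made after seeing the data, the median ratio was 0.726, and with replicate 2 alone 2.80, so the direction rests on replicate 2. Kit, genotype and strain differ between these groups and cannot be told apart.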
